A study of Mus with 3 samples.

Results

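T cells that carried a T cell receptor (TCR) but no count of either coreceptor were examined in MC38 tumors grown in mice of 3 genotypes, named WT, RARα-KO and RARα-TG. A cell was taken if its barcode had 500 or more unique molecular identifiers (UMIs) of genes, a TCR clonotype, 2 or more UMIs summed over Cd3d, Cd3e and Cd3g, and 0 UMIs of Cd4, Cd8a, Cd8b1 and Foxp3. The rule found 345 such cells, called coreceptor-negative cells here, among 3651 T cells, 3702 barcodes with a clonotype and 5600 barcodes with 500 or more UMIs. The other T cells were 2218 CD8-gated cells (1 or more UMIs of Cd8a or Cd8b1, none of Cd4 or Foxp3), 975 CD4-gated cells (the reverse) and 113 cells with counts of both kinds. Because the cells were chosen by their counts, the absence of coreceptor counts and every gene difference from the gated cells are descriptions and not findings.

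MC38 is a mouse colon carcinoma line, and tumors were taken on day 16. RARα-KO mice are dLck-Cre×Rara L/L, where Cre driven by the distal part of the Lck promoter removes part of Rara from T cells, and RARα-TG mice carry Rara under the CD2 promoter. The WT strain was C57BL/6 or dLck-Cre; which of them, and how many mice were pooled in each genotype, is not given in the sources used here. The mice used in the study were adult. Per genotype, cells were marked with an antibody hashtag, and 30000 sorted T cells positive for CD45.2 and CD3 were mixed with 10000 cells of the whole suspension, which the methods call unsorted. All were read as 1 library of a 10x Genomics kit that counts the 5′ ends of transcripts. A hashtag gave the genotype of 324 of the 345 cells, 124 from WT, 80 from RARα-KO and 120 from RARα-TG, and 21 had none. Each genotype is 1 sample, so there are no replicates and no test was made. All intervals, other than the limits for a count of 0, are exact 95% intervals, Clopper-Pearson for shares and from the binomial distribution of UMIs for ratios, and they cover counting error only.

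CD4 and CD8 are the coreceptors that bind MHC class II and class I beside the TCR, and a mature αβ T cell normally keeps one of them. T cells without either exist as γδ T cells, as part of the invariant natural killer T (NKT) cells, and as a small αβ population found in tissues and tumors. In droplet sequencing a transcript that is present can also go uncounted, more often in a cell with few UMIs. The rearranged TCR is shared by all descendants of one T cell, so cells of 1 clonotype are expected to carry the same coreceptor.

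Receptors that coreceptor-negative cells shared with gated cells are shown first, since the coreceptor counts of the sister cells are a readout that the rule did not use. In each genotype the 2 clonotypes with the most coreceptor-negative cells and at least 1 gated cell are given by the CDR3 of their α (TRA) and β (TRB) chain, 5′ to 3′, with the first and last codon of the CDR3 in capitals.
WT clonotype 5 TRA: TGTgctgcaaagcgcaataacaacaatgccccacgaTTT
WT clonotype 5 TRB: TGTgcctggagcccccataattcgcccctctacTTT
WT clonotype 54 TRA: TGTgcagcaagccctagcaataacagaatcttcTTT
WT clonotype 54 TRB: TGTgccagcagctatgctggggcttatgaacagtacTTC
RARα-KO clonotype 44 TRA: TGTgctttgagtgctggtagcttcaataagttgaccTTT
RARα-KO clonotype 44 TRB: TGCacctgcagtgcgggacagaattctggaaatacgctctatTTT
RARα-KO clonotype 2 TRA: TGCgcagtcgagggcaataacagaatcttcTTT
RARα-KO clonotype 2 TRB: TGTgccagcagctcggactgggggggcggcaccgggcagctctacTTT
RARα-TG clonotype 27 TRA: TGTgcagccctccaggggaagcttatcTTT
RARα-TG clonotype 27 TRB: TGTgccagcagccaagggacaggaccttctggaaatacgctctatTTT
RARα-TG clonotype 138 TRA: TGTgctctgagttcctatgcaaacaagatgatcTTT
RARα-TG clonotype 138 TRB: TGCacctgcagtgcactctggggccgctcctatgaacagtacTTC

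WT clonotype 5 (TRAV5-4 and TRBV31) held 2 coreceptor-negative cells and 68 CD8-gated cells, with no CD4-gated cell among its 70. Its 2 coreceptor-negative cells had 2455 and 3665 UMIs. WT clonotype 54 (TRAV7D-2 and TRBV10) held 2 beside 8 CD4-gated cells. RARα-KO clonotype 44 (TRAV12D-2 and TRBV1) held the most, 4, with 2399, 2749, 3495 and 4870 UMIs, and 9 CD4-gated cells. RARα-KO clonotype 2 (TRAV3D-3 and TRBV3) held 2 beside 84 CD8-gated cells. RARα-TG clonotype 27 (TRAV7D-2 and TRBV5) held 3 beside 15 CD4-gated cells, and clonotype 138 (TRAV6-7-DV9 and TRBV1) held 3 beside 1 CD4-gated cell. None of these 6 clonotypes held gated cells of both kinds. The largest clonotypes of coreceptor-negative cells with no gated sister had 2 cells in each genotype.

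A second set of receptors is shown because it marks a T cell type that can lack both coreceptors. Invariant NKT cells use an α chain of TRAV11 joined to TRAJ18, which was found in 4 of the 260 coreceptor-negative cells with an α chain (1.54%, 0.421% to 3.89%). It was found in 0 of 1896 CD8-gated cells, which allows a share of up to 0.158% (limits for a count of 0 are set at 3 cells), and in 1 of 897 CD4-gated cells (0.111%, 0.00282% to 0.620%). Its CDR3 had 45 bases in all 5 cells and differed only at the base in capitals, at position 12 from the 5′ end of the CDR3.
2 WT and 1 RARα-TG coreceptor-negative cells: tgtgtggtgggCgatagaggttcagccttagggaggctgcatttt
1 RARα-TG coreceptor-negative cell: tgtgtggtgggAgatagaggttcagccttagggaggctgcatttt
1 RARα-TG CD4-gated cell: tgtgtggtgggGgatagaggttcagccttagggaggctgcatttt

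The 4 coreceptor-negative cells with this chain had 2191, 2523, 2887 and 4142 UMIs, and each was the only cell of its clonotype. In 3 of them the β chain was called TRBV12-2+TRBV13-2, and in 1 it was TRBV29. Zbtb16, the transcription factor of NKT cell development, had 2, 0, 1 and 0 UMIs in these cells in the same order. The α chain of mucosal-associated invariant T cells (TRAV1 with TRAJ33) was found in none of the coreceptor-negative cells with an α chain, which in WT allows a share of up to 3.12%. A contig of the δ locus was found in 2 of 124 WT coreceptor-negative cells (1.61%) against 6 of 849 CD8-gated cells (0.707%). Trdc and Tcrg-C1, a δ and a γ chain constant gene, summed to 2 and 5 UMIs over all 324. Other genes of the γ and δ loci were counted as well. In the 227 cells that were the only cell of their clonotype, Trgv2 had 15 UMIs, Trdv4 7, Tcrg-C2 5, Tcrg-C4 4 and Tcrg-C3 0.

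The label of these cells as T cells was checked on their Cd3 genes, which the rule used, and on Trac, the α chain constant gene. The median of Cd3d, Cd3e and Cd3g together was 7 UMIs (WT), 9 (RARα-KO) and 7 (RARα-TG), against 23, 22 and 12 in CD8-gated cells and 13, 19 and 11 in CD4-gated cells. Trac was at 147 CPM (UMIs of a gene scaled to a fixed total of gene UMIs) in the WT coreceptor-negative cells, 126 in those of RARα-KO and 156 in those of RARα-TG. In CD8-gated cells Trac was at 182, 175 and 151 CPM, and in CD4-gated cells at 215, 199.6 and 218 CPM. A Trac UMI was counted in 37.1%, 36.2% and 31.7% of the coreceptor-negative cells in the same order, fewer than in CD4-gated cells (54.5%, 56.9% and 54.5%). Both an α and a β chain were found in 70.2%, 61.2% and 75.8% of them. The contigs that the rule required come from transcripts of the same receptor, so Trac is no independent check of the label.

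The coreceptor-negative cells were shallow. Their median was 2682 UMIs (WT), 2816 (RARα-KO) and 2796 (RARα-TG), against 5579, 5202 and 4179 in CD8-gated cells and 3978, 4530 and 3832 in CD4-gated cells. The shallowest had 703 UMIs. The median share of mitochondrial UMIs was 1.02%, 0.780% and 0.876%, against 0.962%, 0.856% and 1.09% in CD8-gated and 0.774%, 0.709% and 0.671% in CD4-gated cells, and was thus above the CD4-gated median in each genotype. At the limit of the Cd3 rule, 19 cells had the 2 UMIs required (median 2027 UMIs), and 17 cells with 1 UMI stayed out (median 1878 UMIs). The lowest ratio of the top hashtag to the next was 3.04 among cells with a genotype, and the highest among those without was 2.98.

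**Figure D1:**
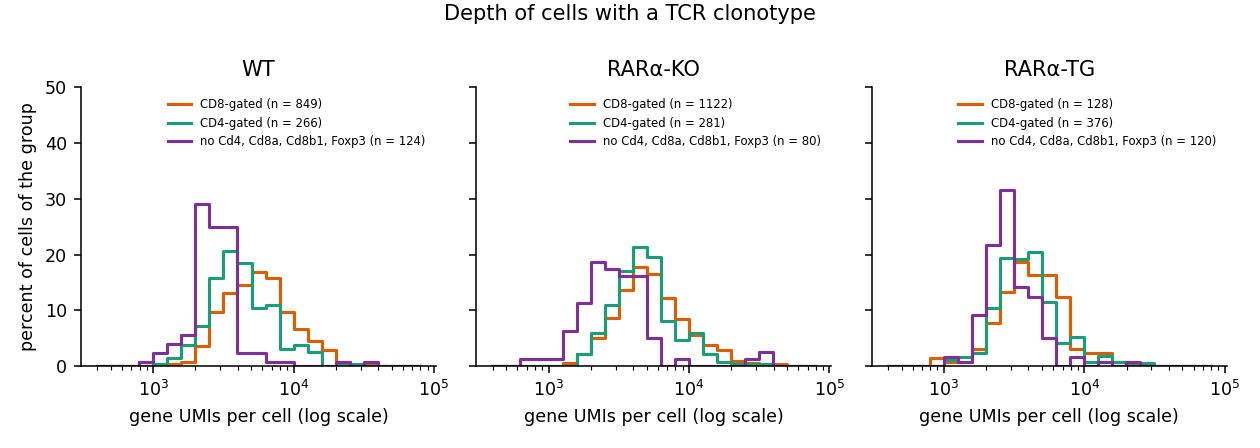
UMIs per cell (log axis) of coreceptor-negative, CD8-gated and CD4-gated cells, by genotype. The coreceptor-negative cells lie to the left, with medians of 2682 (WT), 2816 (RARα-KO) and 2796 (RARα-TG) UMIs.

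A small set of 7 coreceptor-negative cells stood apart with 10000 or more UMIs, 2 from WT, 3 from RARα-KO and 2 from RARα-TG. They reached 39535 UMIs, and 6 of them held 77 to 364 UMIs of a list of 12 MC38 or stromal genes, while the RARα-TG cell of 14937 UMIs held 0. The RARα-KO cell of 27762 UMIs, which held 77 UMIs of this list, had 0 UMIs of its genes Col3a1 and Sparc. It also held 1385 UMIs of the dendritic cell list, 937 of them of Cd74. Below 10000 UMIs the MC38 or stromal list summed to 294, 670.1 and 284 CPM in the coreceptor-negative cells of the 3 genotypes (WT, RARα-KO, RARα-TG), with 4, 7 and 3 of its 12 genes at 0. In CD8-gated cells below 10000 UMIs, which were deeper (medians of 5015, 4738 and 4100 against 2672, 2795 and 2778 UMIs), it summed to 1061, 991 and 505 CPM. The list holds Lgals3, which was also counted in T cells. In CD8-gated cells alone in their clonotype, with the genotypes summed, Lgals3 gave 531 of the list's 596 CPM. The sums of the list are thus not read as RNA of MC38 or stromal cells. The hashtag rule left out cells with a top hashtag below 3 times the next, but a doublet of 2 genotypes with more unequal hashtags passes it. Doublets within a genotype were not called. Some gene levels are thus given with and without the 7 cells. The 3 deep RARα-KO cells held 27762, 35489 and 35876 of the 333425 UMIs of their group, with 5, 13 and 7 UMIs of the Cd3 genes. RARα-KO levels over all depths are thus lowered for genes that these 3 cells lack.

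Coreceptor-negative cells were 124 of 1268 WT T cells (9.78%, 8.20% to 11.5%), 80 of 1517 RARα-KO T cells (5.27%, 4.20% to 6.52%) and 120 of 664 RARα-TG T cells (18.1%, 15.2% to 21.2%). The 3 intervals did not overlap. The RARα-TG tumor also had the fewest CD8-gated cells, 128 against 849 in WT and 1122 in RARα-KO. Among T cells without Cd8a or Cd8b1 counts the WT share was 31.8% (27.2% to 36.7%), the RARα-KO share 22.2% (18.0% to 26.8%) and the RARα-TG share 24.2%, and the order of the genotypes was thus another one. Among T cells without Cd4 or Foxp3 counts it was 12.7%, 6.66% and 48.4%.

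The share of coreceptor-negative cells was high at low depth and low at high depth. Over all genotypes it was 32.1% (44 of 137) from 1000 to 2000 UMIs, 24.7% (138 of 558) from 2000 to 3000, 9.17% (114 of 1243) from 3000 to 5000, 1.62% (18 of 1114) from 5000 to 10000 and 1.80% (7 of 389) from 10000 on. From 2000 to 3000 UMIs the WT share was 29.2% (23.0% to 36.2%), the RARα-KO share 13.1% (8.65% to 18.7%) and the RARα-TG share 32.6% (25.6% to 40.1%), and the intervals of WT and RARα-TG overlapped. From 3000 UMIs on it was 4.97% (3.72% to 6.48%), 2.99% (2.12% to 4.08%) and 11.1% (8.38% to 14.4%).

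**Figure D2:**
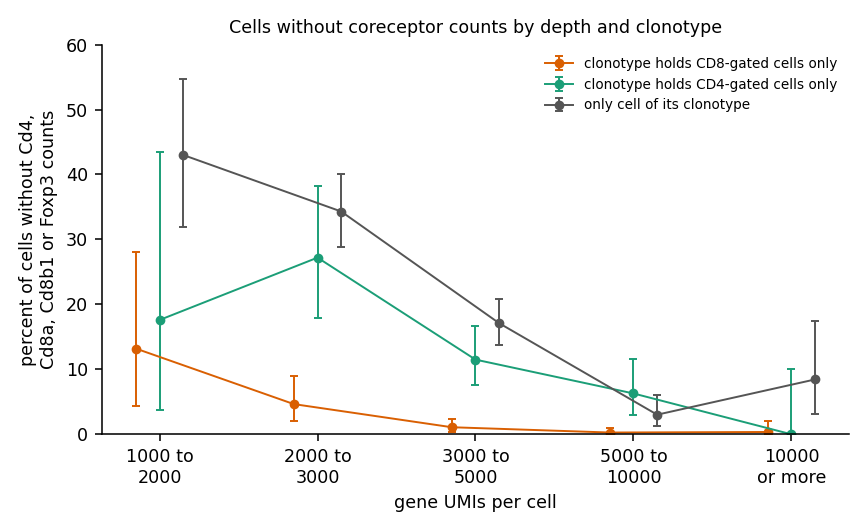
Percent of T cells that were coreceptor-negative in each range of UMIs from 1000 on, over all genotypes together, with Clopper-Pearson 95% intervals. Cells with only CD8-gated sisters, with only CD4-gated sisters and lone cells are drawn apart. In lone cells the share was 43.0% from 1000 to 2000 UMIs and 3.02% from 5000 to 10000.

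How often a gated cell would lose all its coreceptor counts at low depth was calculated by thinning gated cells to a fixed number of UMIs. Cells with fewer UMIs than that number were left out. At 2000 UMIs these were 12 (WT), 31 (RARα-KO) and 8 (RARα-TG) CD8-gated and 17, 6 and 19 CD4-gated cells. CD8-gated cells had medians of 11, 9 and 7 UMIs of Cd8a and Cd8b1 together, in the order of genotypes used above. CD4-gated cells had medians of only 3, 3 and 2 UMIs of Cd4 and Foxp3. At 2000 UMIs, 5.32%, 6.01% and 9.32% of CD8-gated cells and 21.0%, 23.2% and 22.3% of CD4-gated cells would have no count left. At 1000 UMIs these shares were 19.2%, 20.4% and 25.6% for CD8-gated and 44.4%, 48.2% and 46.6% for CD4-gated cells. Cells in which every coreceptor count was already missing are not among the thinned cells, so for a whole lineage these shares are too low.

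Most coreceptor-negative cells that shared a clonotype with gated cells shared it with CD4-gated cells. A gated sister cell was found for 21 of the 124 WT, 39 of the 80 RARα-KO and 23 of the 120 RARα-TG cells. The sisters were only CD4-gated for 14 of 21 WT cells (66.7%, 43.0% to 85.4%), 25 of 39 in RARα-KO (64.1%, 47.2% to 78.8%) and for 21 of 23 RARα-TG cells (91.3%, 72.0% to 98.9%), or 60 of 83 in all (72.3%, 61.4% to 81.6%). They were only CD8-gated for 7, 14 and 1 cells, and for 1 RARα-TG cell they were of both kinds. Among gated cells with gated sisters, 1726 of 1730 CD8-gated cells had only CD8-gated sisters and 396 of 402 CD4-gated cells had only CD4-gated sisters. In RARα-TG alone these were 16 of 18 CD8-gated cells (88.9%, 65.3% to 98.6%) and 134 of 136 CD4-gated cells. Over the genotypes together, the clonotype thus carried the lineage in nearly all cells where it could be read.

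Seen from the clonotypes, coreceptor-negative cells made up 22 of 1771 cells with CD8-gated sisters only (1.24%, 0.780% to 1.87%) and 60 of 487 cells with CD4-gated sisters only (12.3%, 9.53% to 15.6%). They made up 227 of 1142 cells that were alone in their clonotype (19.9%, 17.6% to 22.3%). The same order held from 3000 to 5000 UMIs, with 1.09%, 11.5% and 17.1%. From 10000 UMIs on the shares were 1 of 279 cells with CD8-gated sisters, 0 of 35 with CD4-gated sisters, which allows a share of up to 8.57%, and 6 of 71 lone cells (8.45%, 3.16% to 17.5%). These 6 lone cells are among the 7 deep cells described above.

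**Figure D3:**
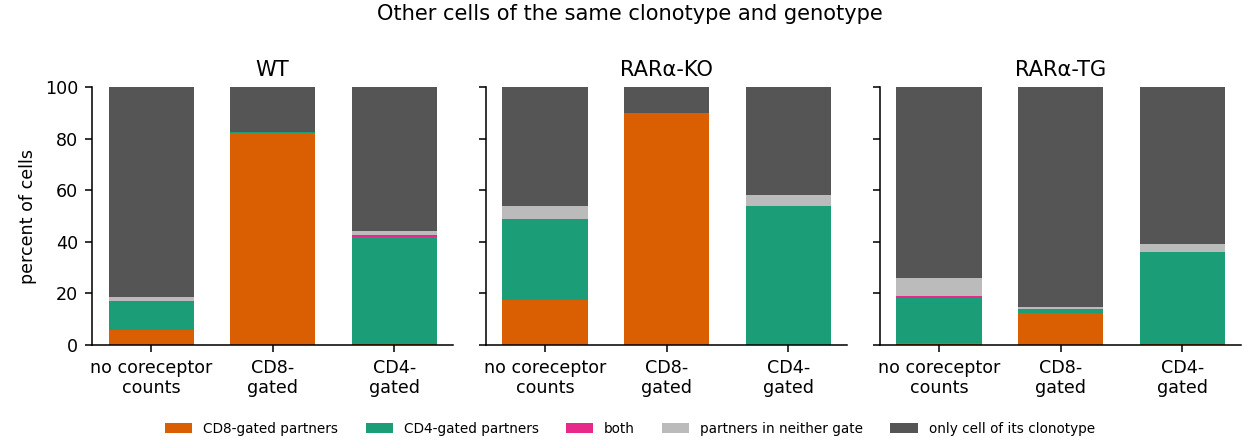
Coreceptor-negative and gated cells of each genotype by the kind of gated cells in their clonotype. Among coreceptor-negative cells 101 of the 124 (WT), 37 of the 80 (RARα-KO) and 89 of the 120 (RARα-TG) were lone, and more of them had only CD4-gated than only CD8-gated sisters in each genotype.

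Lone clonotypes were frequent among the coreceptor-negative cells of WT, where 81.5% (73.5% to 87.9%) had no sister, against 17.6% of CD8-gated and 55.6% of CD4-gated cells. In RARα-KO the share was 46.2% (35.0% to 57.8%), against 9.80% and 41.6%. In RARα-TG it was 74.2%, against 85.2% and 60.9%. Chains were also found less often in coreceptor-negative cells. In WT both an α and a β chain were found in 70.2% of them, against 88.0% of CD8-gated and 83.5% of CD4-gated cells. A β but no α chain was found in 22.6%, against 9.19% and 6.77%. The part of missing chains in the share of lone cells was not tested. The 124, 80 and 120 cells fell into 119, 70 and 111 clonotypes, with at most 2, 4 and 3 cells in 1 clonotype. In RARα-KO the gene segment TRBV16 was used by 10 of 77 coreceptor-negative cells with a β chain (13.0%) and by 645 of 1104 CD8-gated cells (58.4%), and by 6.27% of CD4-gated cells. Counted by clonotypes, TRBV16 was at 13.2% of those of the coreceptor-negative and 30.8% of those of the CD8-gated RARα-KO cells.

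Each coreceptor-negative cell was also placed by its whole profile, without the genes of the rule and mitochondrial, ribosomal and TCR segment genes, next to the mean CD4-gated or CD8-gated profile of its genotype over 7906 genes. Nearer the CD4-gated profile were 75 of 124 WT cells (60.5%, 51.3% to 69.1%), 62 of the 80 RARα-KO cells (77.5%, 66.8% to 86.1%) and 64 of the 120 RARα-TG cells (53.3%, 44% to 62.5%). The method placed 88.3%, 95.7% and 88.8% of CD4-gated cells next to the CD4-gated profile, and 1.18%, 2.41% and 4.69% of CD8-gated cells. With mean profiles over all genotypes the shares of RARα-KO and RARα-TG became 62.5% and 84.2%, so no order of the genotypes is read from them.

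The placement followed the clonotype where both were known. Of the 60 coreceptor-negative cells with CD4-gated sisters, 59 were nearer the CD4-gated profile, and of the 22 with CD8-gated sisters, 20 were nearer the CD8-gated one. Of the 227 lone cells, 128 were nearer the CD4-gated profile (56.4%, 49.7% to 62.9%), 59 of 101 of them from WT, 32 of 37 from RARα-KO and 37 of 89 from RARα-TG. With mean profiles over all genotypes 161 of the 227 were nearer the CD4-gated profile (70.9%, 64.6% to 76.7%), 64, 26 and 71 in the same order. The split of the RARα-TG lone cells thus depended on the profiles used.

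**Figure D4:**
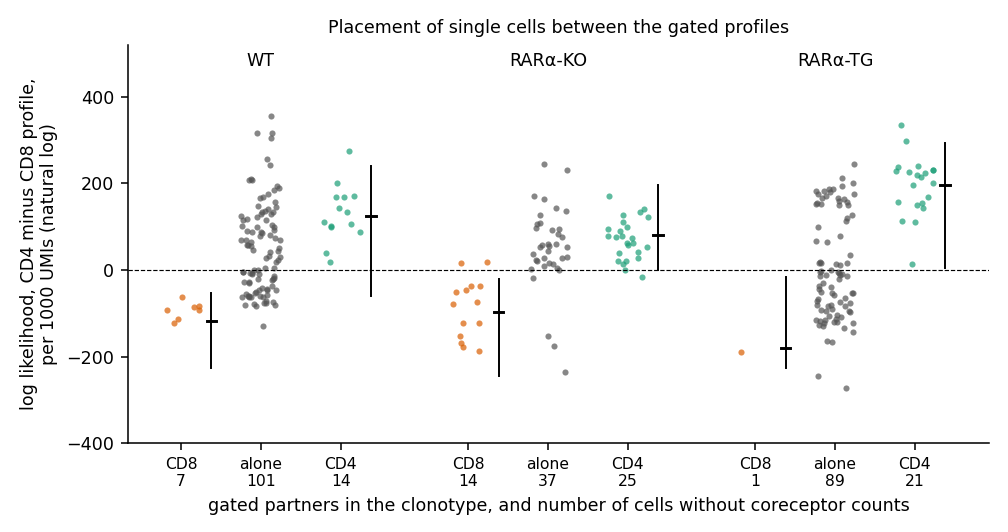
Position of coreceptor-negative cells between the mean CD8-gated (below 0) and CD4-gated (above 0) profile of their genotype, on the vertical axis as log likelihood per 1000 UMIs. Cells with only CD8-gated sisters, lone cells and cells with only CD4-gated sisters are drawn side by side for each genotype, and other cells are not drawn. Of the coreceptor-negative cells, 59 of 60 with CD4-gated sisters lie above 0 and 20 of 22 with CD8-gated sisters lie below 0.

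Gene levels were summed over the cells of a genotype and given in CPM, and a gene was counted as past the fold where the ratio was beyond 2-fold in all 3 genotypes in the same direction. Against CD8-gated cells 96 of 5387 genes were higher (1.78%) and 53 were lower (0.984%) in the coreceptor-negative cells. Against CD4-gated cells 35 of 5303 genes were higher (0.660%) and 26 were lower (0.490%). Without cells of 10000 or more UMIs, the genes below CD8-gated cells became 27 and those above CD4-gated cells 22. The genotypes share no cells, but every gene here comes from cells chosen by the same counts. Of the 8 genes most above CD8-gated cells, 3 stayed among the 8 without cells of 10000 or more UMIs, and of the 8 most below, 4 stayed. Against CD4-gated cells 0 of the 8 highest and 3 of the 8 lowest stayed. Sparc, a matrix protein gene of stromal cells, shows this, with 331, 501 and 146 CPM in all coreceptor-negative cells and 8.64, 0 and 10.9 CPM without the deep ones.

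Cytotoxic genes were low in these cells. Of 16 measured genes of the CD8 lineage and cytotoxic list, 11 were more than 2-fold below CD8-gated cells in all 3 genotypes and 0 above, with medians of -1.76, -2.10 and -2.50 on the log2 scale, against 0.13, 0.05 and 0.08 over all genes. Nkg7, a protein of cytotoxic granules (chromosome 7, 43437138 to 43438246 in GRCm38.p6), was at 471 CPM (WT), 786 (RARα-KO) and 348 (RARα-TG) in coreceptor-negative cells, against 2910, 3592 and 1860 CPM in CD8-gated cells. The log2 ratios were -2.63, -2.19 and -2.42, and -2.49, -1.93 and -2.58 without the deep cells. Klrk1, the receptor NKG2D, was at 88.3, 69.0 and 54.3 CPM against 368, 346 and 325. Gzma, granzyme A, was at 66.2, 195 and 4.94 CPM against 875, 923 and 719, and at 77.8, 59.8 and 5.46 CPM against 665, 949 and 843 without the deep cells, where the RARα-KO log2 ratio went from -2.24 to -3.99. Gzmf, a granzyme of strongly activated CD8 T cells, was at 0 UMIs in WT and RARα-KO coreceptor-negative cells. Ccl5, a chemokine of effector T cells, lay between the gated groups, with 2161, 2786 and 1663 CPM against 3953, 11153 and 6734 in CD8-gated and 678, 604 and 425 in CD4-gated cells.

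Some genes of helper and regulatory T cells were above CD8-gated and below CD4-gated levels. Of 7 measured genes of the helper list, 2 were past the fold above CD8-gated cells, and of 8 measured against CD4-gated cells, 1 was past it below. Of 9 measured genes of the regulatory T cell list, 3 were past the fold above CD8-gated cells, with medians of 1.28, 0.63 and 2.39. Against CD4-gated cells, 2 of 14 were past the fold below, with medians of -0.91, -1.56 and -0.89. Areg, the growth factor amphiregulin (chromosome 5, 91139599 to 91148432 in GRCm38.p6), was at 373, 108 and 682 CPM in the coreceptor-negative cells, against 16.8, 4.28 and 11.2 in CD8-gated and 889.5, 353 and 1253 in CD4-gated cells. It was counted in 17.7%, 12.5% and 25.8% of the coreceptor-negative cells. Tnfrsf4, the costimulatory receptor OX40, was at 1195, 975 and 1023 CPM, against 241, 93.7 and 43.3 and against 2918, 2341 and 1939. Maf, a transcription factor of helper and regulatory cells, was at 218, 114 and 289 CPM, against 5.09, 14.8 and 33.6 and against 406, 327 and 475. Izumo1r, the folate receptor 4, was at 105, 87.0 and 93.9 CPM, against 3.16, 10.2 and 9.61 and against 226, 189 and 207. All 4 genes stood in the same order in each genotype. Areg, Maf and Izumo1r were among the 8 genes most above CD8-gated cells, which were ranked only if above them in all 3 genotypes. Their place above CD8-gated cells was thus fixed by the choice. Without the deep cells, the log2 ratios to CD8-gated cells were 4.71, 4.66 and 6.06 for Areg and 2.66, 4.24 and 4.47 for Tnfrsf4. For Maf they were 5.32, 3.19 and 3.02, and for Izumo1r 5.16, 3.65 and 3.79.

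Genes of naive and memory T cells were above both gated groups in part. Of 13 measured genes of that list, 3 were past the fold above CD8-gated and 5 above CD4-gated cells, with medians against CD4-gated cells of 1.98, 0.83 and 1.12, where all genes had -0.06, -0.04 and -0.07. S1pr1, the receptor by which T cells leave tissue, was at 228, 135 and 175 CPM, against 34.9, 35.4 and 81.7 in CD8-gated and 57.7, 49.7 and 47.7 in CD4-gated cells. Tcf7, the transcription factor TCF1, was at 167, 138 and 131 CPM, against 44.9, 34.9 and 197 and against 33.1, 45.2 and 31.6. Only in RARα-TG was Tcf7 below CD8-gated cells. Depth moved with this group. In cells of 2000 to 3000 UMIs alone the log2 ratio of S1pr1 to CD8-gated cells was 0.91, 0.27 and 2.09 in place of 2.71, 1.93 and 1.10, and that of Tcf7 was -0.48, 0.18 and -0.04 in place of 1.89, 1.98 and -0.59. Its part in the higher level was not tested.

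**Figure D5:**
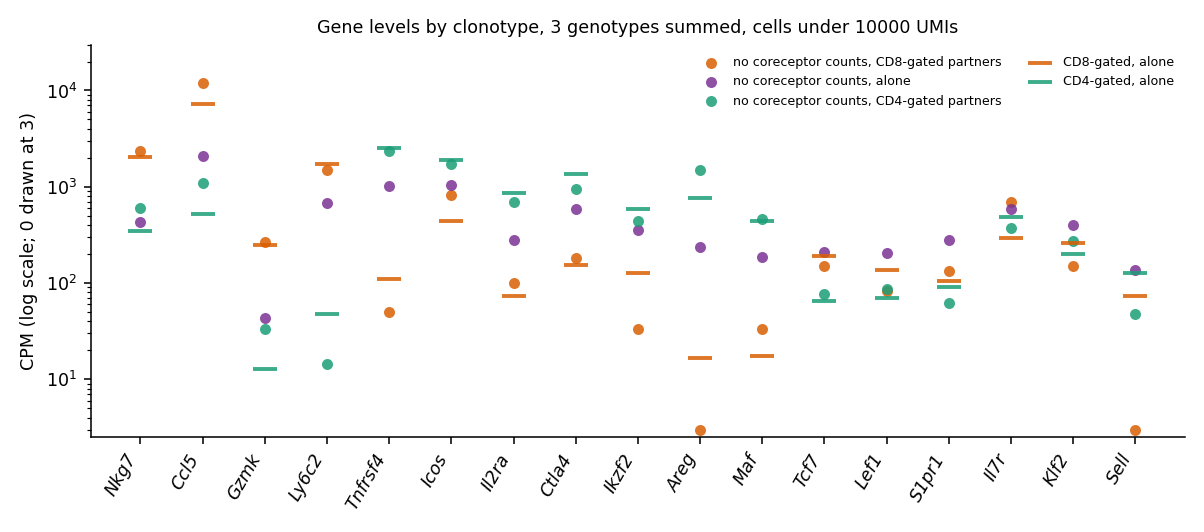
CPM (log axis) of 17 genes, chosen after their values were seen, in cells below 10000 UMIs with the 3 genotypes summed. Coreceptor-negative cells with only CD8-gated sisters, with only CD4-gated sisters and lone are drawn beside lone CD8-gated and lone CD4-gated cells. Genes at 0 are drawn at 3 CPM. Nkg7 lies near the lone CD8-gated level in cells with CD8-gated sisters and nearer the lone CD4-gated level in lone cells. In lone coreceptor-negative cells Areg, Tnfrsf4 and Icos lie between the lone gated groups.

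The other lists add little. Of 10 measured genes of the TCR complex, 0 were past the fold against either gated group. Cell cycle genes had 6 of 15 past the fold below CD8-gated cells, with a sum of 2654 CPM against 3358 in WT, but without cells of 10000 or more UMIs the sum was higher, 2875 against 1877 CPM. Immediate early genes, which tissue dissociation can induce, summed to 6597, 6022 and 6190 CPM below 10000 UMIs, against 4472, 5138 and 3694 in CD8-gated and 5671, 5688 and 5568 in CD4-gated cells. The γδ T cell list had 1 gene with enough counts, Maf, with 10 (WT), 12 (RARα-KO) and 3 (RARα-TG) of its 17 genes at 0. The list of NK cell receptors, which also holds the granzyme gene Gzma, summed to 363, 501 and 59.3 CPM against 1145, 1169 and 1201 in CD8-gated cells. Of its UMIs 41.3% (RARα-KO) and 75% (RARα-TG) lay in 1 coreceptor-negative cell. Below 10000 UMIs the list summed to 406, 145 and 62.8 CPM, against 933, 1106 and 1161 in CD8-gated and 103, 26.7 and 24.0 in CD4-gated cells. Gzma alone made up most of the CD8-gated sums, so the difference from CD8-gated cells is not read as one of receptors.

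Gene levels were also compared within shared clonotypes. The 60 cells with CD4-gated sisters were compared with 161 such sisters of 46 clonotypes below 10000 UMIs, weighting each clonotype by its coreceptor-negative cells. Named or listed genes were taken if they had 20 or more UMIs over both groups together. Of 178 such genes, 146 lay within 2-fold of the sisters, 18 were higher, 13 were lower and 1 was at 0 in the coreceptor-negative cells. Part of them were named for their values in these data, and no share over all genes was calculated. Areg was at 1496 CPM in the coreceptor-negative cells and 1445 CPM in the sisters, a log2 ratio of 0.05. Icos, a costimulatory receptor, was at 1735 and 1929 CPM (-0.15), and Ikzf2, the transcription factor Helios, at 439.6 and 434 CPM (0.02). Cd3d was at 1257 and 1272 CPM (-0.02). Larger ratios were found for Fos, an immediate early gene, at 411 and 65.3 CPM (2.65), for Klf2, a transcription factor of resting T cells, at 272 and 107 CPM (1.35), for Ccr7 at 287 and 121 CPM (1.24), and for Prf1, perforin, at 28.7 and 68.1 CPM (-1.25, 6 UMIs).

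The 21 cells with CD8-gated sisters were compared in the same way with 466 sisters of 17 clonotypes. Of 187 such genes 117 lay within 2-fold, 27 were higher, 16 were lower and 27 were at 0 in the coreceptor-negative cells. With 21 cells against 466, a gene near the limit of 20 UMIs would hold few or no UMIs in the coreceptor-negative cells at an equal level. These counts are thus not read as differences. Some genes at 0 were far from this limit, with 1273 UMIs of Gzmf, 510 of Xcl1 and 367 of Serpine2 in the sisters. Ccl5 was at 12096 and 11565 CPM (0.06), Ly6c2 at 1504 and 1725 CPM (-0.20) and Klrk1 at 401 and 455 CPM (-0.18). Nkg7 was at 2339 and 3656 CPM (-0.64), and Gzmb, granzyme B, at 2389 and 3762 CPM (-0.66). Ccl4, a chemokine, was at 284 and 2420 CPM (-3.09), Prf1 at 83.5 and 359.8 CPM (-2.11), and Xcl1, another chemokine, at 0 UMIs and 703 CPM. Lag3, an inhibitory receptor, was at 66.8 and 556 CPM (-3.06), from 4 UMIs. Il7r, the receptor of IL-7, was at 702 and 274 CPM (1.36), and Tcf7 at 150.4 and 23.0 CPM (2.71), from 9 UMIs. Klf3 was at 284 and 34.8 CPM (3.03). The sisters were deeper, with a median of 4551 against 2672 UMIs.

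Split by clonotype, with the genotypes summed, the coreceptor-negative cells were not alike. The groups also differed in their mix of genotypes. WT, RARα-KO and RARα-TG gave 7, 13 and 1 of the cells below 10000 UMIs with CD8-gated sisters. They gave 14, 25 and 21 of those with CD4-gated sisters and 99, 35 and 87 of the lone cells. Lone gated cells were 138, 99 and 102 (CD8-gated) and 138, 109 and 218 (CD4-gated). Below 10000 UMIs, Areg was at 0 CPM in the 21 cells with CD8-gated sisters, 1496 in the 60 with CD4-gated sisters and 235 in 221 lone cells, against 16.8 in lone CD8-gated and 764 in lone CD4-gated cells. Nkg7 was at 2339, 602 and 430.1 CPM, against 2030 in lone CD8-gated and 343 in lone CD4-gated cells. Tnfrsf4 was at 50.1, 2341 and 1017 CPM, against 109 and 2552. In S1pr1 the lone cells stood above all others, at 278 CPM against 134 and 62.1 in the cells with sisters and 105 and 91.3 in lone gated cells. Lef1, a transcription factor of naive T cells, was likewise highest in the lone cells, at 203 CPM against 83.5 and 86.0, and 137 and 70.3. The naive and memory list summed to 3375 CPM in the lone coreceptor-negative cells, against 2222 and 1672 in those with sisters and 2205 and 2052 in lone gated cells. By genotype, the lone coreceptor-negative cells had 3740 (WT), 2505 (RARα-KO) and 3352 CPM (RARα-TG) of this list. Lone CD8-gated cells had 2793, 1656 and 1900 CPM, and lone CD4-gated cells 2217, 1862 and 2046. For the single genes and the cells with sisters, the part of the genotype mix was not tested.

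Rara (chromosome 11, 98927800 to 98974942 in GRCm38.p6) was given first in the comparison of genotypes, although it does not check the deletion, since a transcript that lacks an exon is still counted. In the coreceptor-negative cells Rara was at 105 CPM (WT), 57.0 (RARα-KO) and 146 (RARα-TG). The log2 ratio to WT was -0.89 (-1.75 to -0.08) in RARα-KO and -0.64 (-1.59 to 0.24) there without the deep cells. In RARα-TG it was 0.47 (-0.12 to 1.07), an interval that holds 0. In CD4-gated RARα-TG cells Rara was at 287 CPM.

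Between RARα-KO and WT coreceptor-negative cells, 202 of 5057 genes were more than 2-fold higher (3.99%) and 267 were lower (5.28%). Of 11 measured genes of the regulatory T cell list 0 were higher and 5 lower, with a median of -1.0, against -0.03 over all genes. Ikzf2 was at 415 CPM in WT and 150.0 in RARα-KO coreceptor-negative cells (log2 -1.47, -1.95 to -1.0), and at 632 and 381 CPM in CD4-gated cells. Lrrc32, a surface protein of activated regulatory T cells, was at 105 and 15.0 CPM (-2.81, -4.51 to -1.48), and at 155 and 45.2 CPM in CD4-gated cells. Of 13 homing genes 0 were higher and 5 lower. The homing list summed to 2257 CPM in WT and 1518 in RARα-KO, and to 2610 and 1951 CPM below 10000 UMIs. Ccr7, a receptor that guides T cells to lymph nodes, was at 493 and 117 CPM (-2.08, -2.61 to -1.58). In lone cells below 10000 UMIs Ccr7 was at 617 and 248 CPM (-1.32). The genotypes also differ in how many of these cells are lone. In lone cells below 10000 UMIs the regulatory T cell list summed to 4121 CPM in WT and 3836 in RARα-KO, against 4684 and 3513 CPM over all coreceptor-negative cells below 10000 UMIs and 4069 and 2648 CPM at all depths. In the same lone cells the log2 ratio of Ikzf2 was -1.14 (-1.84 to -0.51) and that of Lrrc32 was -1.31 (-3.29 to 0.23).

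The RARα-KO cells also had genes that were nearly absent in WT. Gm42031, a predicted gene, was at 177 CPM and counted in 21.2% of RARα-KO coreceptor-negative cells and at 0 UMIs in WT and RARα-TG ones. It was likewise at 137 and 202 CPM in CD8-gated and CD4-gated RARα-KO cells and at 1.58 and 0.769 CPM in those of WT. The reverse held for Rpl29, a ribosomal protein gene, at 2600 CPM (WT), 783 (RARα-KO) and 2354 (RARα-TG) in coreceptor-negative cells, and at 359 CPM in RARα-KO without the deep cells. In CD8-gated cells Rpl29 was at 3147, 431 and 3188 CPM, and in CD4-gated cells at 2172, 318 and 1981 CPM. Both genes thus followed the genotype in all T cell groups. H2-Aa, H2-Eb1, H2-Ab1 and Cd74, genes of MHC class II presentation, were among the 8 highest in RARα-KO, and 93.7% of the UMIs of the dendritic cell list there lay in the 1 cell of 27762 UMIs.

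Between RARα-TG and WT coreceptor-negative cells, 186 of 5061 genes were more than 2-fold higher (3.68%) and 254 were lower (5.02%). Among the 8 highest, cytokine genes came from few cells. Il17a was at 71.6 CPM in 3.33% of RARα-TG cells and at 0 UMIs in WT, Il13 at 64.2 CPM in 1.67%, and Csf2, the factor GM-CSF, at 54.3 CPM in 0.833%. Fabp5, a fatty acid binding protein, was more widely counted, at 39.2 CPM in WT and 242 CPM in RARα-TG, in 9.68% and 27.5% of cells (log2 2.62, 1.85 to 3.49). Laptm4b, a lysosomal membrane protein, was at 12.3 and 114 CPM (3.21, 1.89 to 4.90). In CD4-gated cells Fabp5 was at 175 and 465 CPM and Laptm4b at 73.9 and 184 CPM.

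Some genes of the NK receptor and cytotoxic lists were lower in RARα-TG. Of 4 measured genes of the NK receptor list, which also holds Gzma, 4 were more than 2-fold lower. Of 13 cytotoxic genes 4 were lower and 1 was higher, with a median of -0.66 against 0.01 over all genes. The cytotoxic list summed to 5163 CPM in WT and 5010 in RARα-TG. Ly6c2, a surface protein of effector and memory CD8 T cells, was at 775 CPM (WT), 516 (RARα-KO) and 163 (RARα-TG) (log2 -2.25, -2.65 to -1.86 for RARα-TG). In CD8-gated cells Ly6c2 was at 1235, 1435 and 1704 CPM. Gzmb went the other way, at 1082 and 2194 CPM (1.02, 0.85 to 1.19). Areg was at 373 and 682 CPM (0.87, 0.58 to 1.17), but from 2000 to 3000 UMIs its ratio was 0.38 (-0.17 to 0.93), and in lone cells it was -0.94 (-1.50 to -0.40), so its direction depended on the cells taken.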

How the data were processed

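Raw UMI counts of each gene were deposited by the authors for 730308 barcodes of 1 pooled library, with the counts of 3 hashtags and a table of TCR contigs. Per the submitters' processing notes Cell Ranger 6.1.0 and mm10 (GRCm38) were used, while the matrix header names Cell Ranger 4. The labels give spleen and naive CD8 T cells as source, which does not match the tumor protocol in the same labels, and the protocol was followed. Genotypes were taken from hashtags (top hashtag 10 or more UMIs and 3 or more times the next). The UMIs of the 324 cells summed to 407677 (WT), 333425 (RARα-KO) and 404802 (RARα-TG). Analysis used scipy 1.17.1, numpy 2.4.6 and pandas 2.3.3 under Python 3.11.15. Sister cells were counted within a genotype. In ratios a count of 0 was set to 3 UMIs, and a gene needed 0.1 UMIs per cell in 1 group and 20 UMIs in both together. The 8 highest and 8 lowest genes of a comparison were ranked by the ratio nearest to 0 over the genotypes, or by the bound of the interval nearest to 0 between genotypes. Beside them, genes of 24 lists were described. The cells, lists and genes were chosen with earlier results of these data known. The intervals of gene ratios were tested on counts simulated without variation between cells, and those of shares were not tested. Alternatives without cells of 10000 or more UMIs, with 2000 to 3000 UMIs, with lone clonotypes and with thinning to 3000 UMIs were added after seeing the data.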

Additional observations from a re-analysis of the deposited data

How the results depend on the processing

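The share of T cells that were coreceptor-negative stayed within its interval in 28 of 30 alternatives and moved in 2, to 8.07% in WT and 3.96% in RARα-KO with both an α and a β chain in a called cell. The share with only CD4-gated sisters stayed in 36 of 36. The profile placement moved in 2 of 39, to 62.5% in RARα-KO and 84.2% in RARα-TG with mean profiles over all genotypes. Gated cells without counts depended on the depth they were thinned to. For CD8-gated cells of WT, RARα-KO and RARα-TG the share was 40.9%, 42.4% and 47.0% at 500 UMIs, 5.32%, 6.01% and 9.32% at 2000 and 1.97%, 2.38% and 4.0% at 3000. For CD4-gated cells it was 66.2%, 69.1% and 68.2% at 500, 21.0%, 23.2% and 22.3% at 2000 and 11.1%, 12.4% and 13.4% at 3000.

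Counts of genes past 2-fold kept within 1.5 times in 32 of 48 alternatives. Genes below CD4-gated cells became 16 with CPM without mitochondrial, ribosomal and TCR segment genes. Without cells of 10000 or more UMIs, genes below CD8-gated cells became 27 and those above CD4-gated cells 22. From 2000 to 3000 UMIs, where fewer genes were measured, counts were 19 above and 11 below CD8-gated cells, 2 above and 3 below CD4-gated cells, 64 higher and 136 lower in RARα-KO, and 122 higher and 113 lower in RARα-TG. In lone clonotypes they were 32 above and 18 below CD8-gated cells, 15 above CD4-gated cells, 125 higher in RARα-KO and 161 lower in RARα-TG. No paired analysis was possible because each genotype is 1 sample of 1 library. Neither mice nor tumors are replicated, and the 80 to 124 cells of a genotype limit all gene ratios.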
